A study of Homo sapiens with 4 samples.

Results

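Keratins that mark the luminal and basal layers of the breast epithelium were followed in MDA-MB231 cells, a human breast cancer line, in 4 conditions with 1 array each. The conditions were PIAS1 shRNA2 cells in SCM, PIAS1 shRNA2 cells in DMEM, control shRNA cells in SCM and control shRNA cells in DMEM, all harvested after 30 h. SCM is a stem cell medium with no serum that holds EGF, basic FGF and insulin, and DMEM here held 10% FBS. PIAS1 is a SUMO ligase that represses transcription, and its shRNA and the scrambled control shRNA were expressed from the U6 promoter in lentivirally infected, puromycin-selected stable lines, so each arm is 1 line. The members were chosen by symbol, as every probe set whose only listed gene was KRT5, KRT7, KRT8, KRT10, KRT14, KRT15, KRT17, KRT18 or KRT19. This gave 11 probe sets of 8 genes, out of 22277 probe sets and 11963 genes in the series. KRT17 was not analysed here, since none of the probe sets listed with 1 gene was its own. The family was proposed with the SCM level of KRT15 already known, so that level is given as a description with no test.

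Keratins are the intermediate filament proteins of epithelia, and a filament needs a type I and a type II keratin as partners. KRT8 (type II) and KRT18 (type I) form the filaments of simple epithelia, and KRT7 (type II) and KRT19 (type I) join them in the luminal cells of the breast duct. KRT5 (type II) and KRT14 (type I) are the pair of basal cells. KRT15 is a type I keratin of basal keratinocytes, known also as a marker of hair follicle stem cells, KRT17 is a type I keratin of basal and myoepithelial cells, and KRT10 is the type I keratin of the suprabasal epidermis.

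The signals are MAS5 intensities on a linear scale. A background floor of 185 was set from genes of other tissues, signals under it were raised to it before a ratio was taken, and a ratio with its dimmer signal under the floor is a bound. Over the arrays, 64.3% to 68.0% of the probe sets were above the floor. PIAS1 on its brightest probe set was at 37.0% of control in SCM and at 37.0% of control in DMEM, another probe set was at 31.5% in SCM and 23.8% in DMEM, and the remaining one was at 77.9% in SCM and under the floor in PIAS1 shRNA2 cells in DMEM (158 against 684). All 5 markers of a mesenchymal-like breast line were above the floor on every array (VIM, CD44, CAV1, AXL and MSN), and PGR and CDH1 were under it on every array, while ESR1 and ERBB2 were above it. ESR1, on its brightest probe set, was near the floor in DMEM, at 206 in PIAS1 shRNA2 and 216 in control shRNA cells. In SCM it had 357 and 706. The authors reported ESR1 as induced by PIAS1 knockdown, on the microarray and by quantitative PCR. By quantitative PCR they could not detect it in control shRNA cells. The probe set read here went the other way in SCM, lower in PIAS1 shRNA2 than in control shRNA cells. No other probe set of ESR1 is given here. As a sign of RNA quality, the 3′ over the 5′ probe set of ACTB gave 1.11 and 1.07 in SCM, against 0.946 and 0.982 in DMEM, for PIAS1 shRNA2 and control shRNA cells. This ratio moved with the medium, and its part in the ratios between media was not tested. The same ratio of GAPDH, 0.879 and 0.834 in SCM against 0.858 and 0.860 in DMEM, was higher in SCM in PIAS1 shRNA2 cells and lower in control shRNA cells.

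The luminal keratins were bright and the basal pair was not detected. KRT18 had signals of 16773 in SCM and 33980 in DMEM in PIAS1 shRNA2 cells, and 16934 in SCM and 29317 in DMEM in control shRNA cells. KRT5 lay between 13.2 and 60.7 and KRT14 between 12.1 and 110 over the 4 arrays, all under the floor, so no ratio is given for either gene. Of the basal members that were measured, only KRT15 was above the floor, and both of its high signals were in SCM. The plot of signals by condition shows this division.

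**Figure D1:**
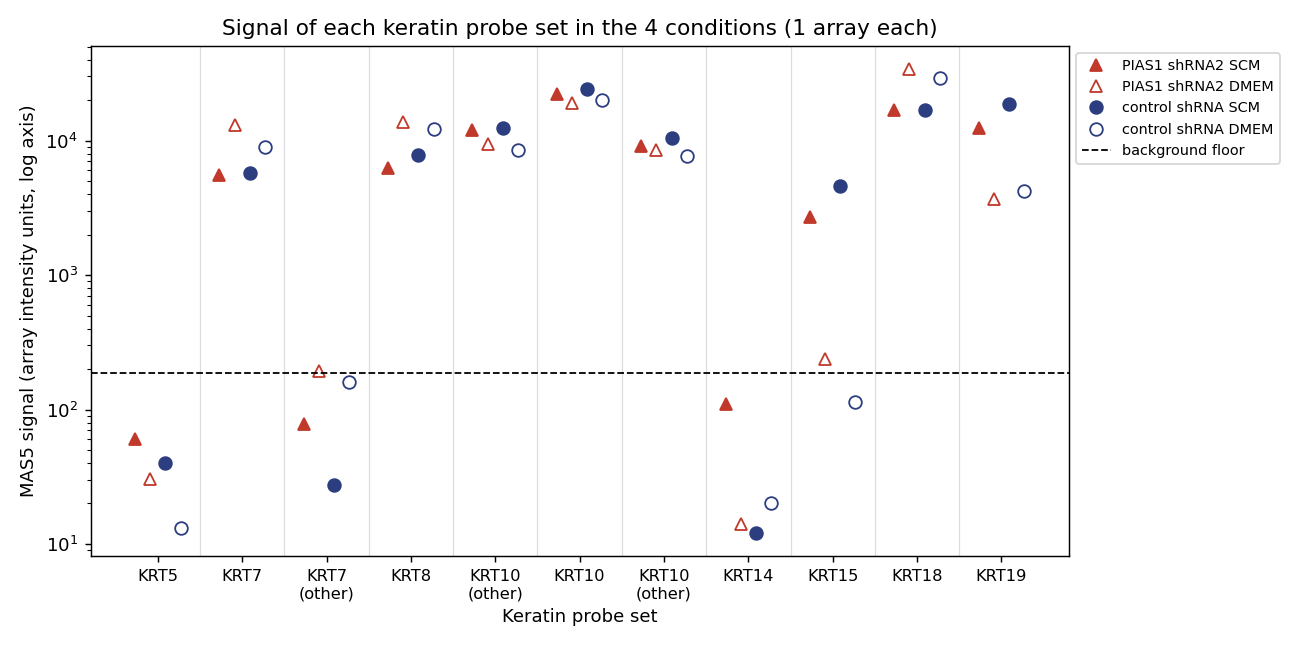
MAS5 signal (y axis, array intensity units, log axis) of each of the 11 keratin probe sets (x axis) in the 4 conditions, 1 array each. Triangles are PIAS1 shRNA2 and circles control shRNA, filled in SCM and open in DMEM; a dashed line marks the floor of 185, and "other" marks a probe set not used for the gene. KRT5 and KRT14 lie under the floor, KRT15 and KRT19 have their filled points above their open ones, and KRT7, KRT8 and KRT18 the reverse.

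RefSeq promoters of GRCh38.p14, each 250 bases before to 50 after the gene's start, were at hand for 3 of the 9 members. All of these are shown, and their genes had different patterns: KRT8 was lower in SCM, KRT10 was near equal in both media, and KRT5 was under the floor. Capitals mark matches on either strand to 4 motifs. The TATA box was searched as TATAAA. The site of AP-1 factors was searched by the letters TGANTCA. For C/EBP factors the letters were TTGCNNAA, and for the box bound by Kruppel-like factors CACCC.
KRT8, chr12:52926420-52926719, minus strand: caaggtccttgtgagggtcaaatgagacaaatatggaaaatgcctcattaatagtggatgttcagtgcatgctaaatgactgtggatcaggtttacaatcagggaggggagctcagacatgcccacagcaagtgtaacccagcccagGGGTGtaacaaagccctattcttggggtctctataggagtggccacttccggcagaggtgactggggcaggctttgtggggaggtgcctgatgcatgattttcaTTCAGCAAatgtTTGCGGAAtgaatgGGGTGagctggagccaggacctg
KRT10, chr17:40822565-40822864, minus strand: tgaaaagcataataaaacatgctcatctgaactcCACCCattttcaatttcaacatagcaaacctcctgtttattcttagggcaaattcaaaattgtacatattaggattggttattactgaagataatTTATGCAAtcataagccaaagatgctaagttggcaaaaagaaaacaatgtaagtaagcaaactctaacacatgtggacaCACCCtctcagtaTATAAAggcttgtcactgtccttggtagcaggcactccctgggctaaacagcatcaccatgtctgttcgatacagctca
KRT5, chr12:52520345-52520644, minus strand: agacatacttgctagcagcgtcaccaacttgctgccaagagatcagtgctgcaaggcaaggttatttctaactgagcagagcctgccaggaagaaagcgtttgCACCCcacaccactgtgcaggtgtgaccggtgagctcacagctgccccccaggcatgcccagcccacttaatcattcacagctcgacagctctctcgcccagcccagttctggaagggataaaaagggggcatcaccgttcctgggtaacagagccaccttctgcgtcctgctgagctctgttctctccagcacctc
KRT10 held TATAAA 29 bases before its start, while KRT8 and KRT5 held no match to these letters, which 11.5% of the 35116 promoters in the table hold. The C/EBP letters were found on each strand once just after the start of KRT8 and once in KRT10, and are held by 10.5% of promoters. CACCC was found 2 times each in KRT8 and KRT10 and 1 time in KRT5, and is held by 59.9% of promoters. TGANTCA, held by 7.71% of promoters, had no match in these windows. These matches are letters and not sites. Only the window shown was searched for each gene, so any other start of a gene was not covered.

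Which keratins differ between the media is the first comparison, and the family split into lower and higher members. KRT7, KRT8 and KRT18 were lower in SCM than in DMEM, KRT15 and KRT19 were higher, and KRT10 differed little. In PIAS1 shRNA2 cells 5 of the 8 measured members were at least 2-fold different, against 16.5% of all genes, 2 of them higher (8.43% of all genes) and 3 lower (8.03%). In control shRNA cells 2 of the 8 were at least 2-fold different, against 16.4% of all genes, and both were higher (8.23% of all genes). In that line 0 members were lower by this margin, against 8.2% of all genes. Without KRT15, whose SCM level was known beforehand, 4 of 7 members were at least 2-fold different in PIAS1 shRNA2 cells and 1 of 7 in control shRNA cells, where the count is near the share of all genes. The lines share no array here. In bulk RNA, a lower signal per cell and fewer cells with the transcript cannot be told apart.

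KRT15 had a signal of 2714 in SCM and 236 in DMEM in PIAS1 shRNA2 cells, and 4612 in SCM and 115 in DMEM in control shRNA cells. Both SCM signals were far above both DMEM signals, a split whose share over all genes was not counted. The lowest signal, that of control shRNA cells in DMEM, was under the floor. KRT15 was thus 11.5-fold higher in SCM in PIAS1 shRNA2 cells and at least 24.9-fold higher in control shRNA cells. These folds rest on dim DMEM signals: a floor of 605, the highest array median, gave 4.48-fold and 7.62-fold, and with no floor that of control shRNA cells was 40.3-fold.

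KRT19, the smallest keratin of the luminal set, had a signal of 12434 in SCM and 3680 in DMEM in PIAS1 shRNA2 cells, and 18700 in SCM and 4181 in DMEM in control shRNA cells. All 4 signals were well above the floor and the media did not overlap. The share of all genes without overlap was not counted. KRT19 was 3.38-fold higher in SCM in PIAS1 shRNA2 cells and 4.47-fold higher in control shRNA cells. Among the genes above the floor in 1 or both arrays, it ranked 311 of 9260 from the top in PIAS1 shRNA2 cells and 135 of 9148 in control shRNA cells.

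KRT7, the type II partner found in glandular ducts, had a signal of 5563 in SCM and 12944 in DMEM in PIAS1 shRNA2 cells, and 5765 in SCM and 8888 in DMEM in control shRNA cells. It was 2.33-fold lower in SCM in PIAS1 shRNA2 cells and 1.54-fold lower in control shRNA cells. Its other probe set had 78.4 in SCM and 194 in DMEM in PIAS1 shRNA2 cells, and 27.3 in SCM and 159 in DMEM in control shRNA cells. Only 1 of these 4 signals was above the floor, so that probe set adds no ratio beyond a bound. With the probe sets averaged, the log2 ratio of KRT7 was -0.64 in PIAS1 shRNA2 cells, under 2-fold, and the count of members there was 4.

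KRT8, the type II keratin of simple epithelia, had a signal of 6289 in SCM and 13857 in DMEM in PIAS1 shRNA2 cells, and 7757 in SCM and 12121 in DMEM in control shRNA cells. It was 2.20-fold lower in SCM in PIAS1 shRNA2 cells and 1.56-fold lower in control shRNA cells. KRT18, its type I partner, with the signals given above, was 2.03-fold lower in SCM in PIAS1 shRNA2 cells and 1.73-fold lower in control shRNA cells. For each of these genes, both SCM signals were under both DMEM signals. The share of all genes split by medium in this way was not counted. The probe sets of KRT8 and KRT18 are of the x class, which can read related transcripts, and both genes are known for many processed pseudogenes, so their signals may be shared.

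KRT10 was read by 3 probe sets, and on all of them the media were close. On the brightest its signal was 22341 in SCM and 19073 in DMEM in PIAS1 shRNA2 cells, and 24339 in SCM and 19958 in DMEM in control shRNA cells. The SCM signal was the higher on each of the 3 probe sets in both lines, by 1.07-fold to 1.26-fold in PIAS1 shRNA2 cells and by 1.22-fold to 1.45-fold in control shRNA cells. The brightest and 1 other of these probe sets are also of the x class.

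**Figure D2:**
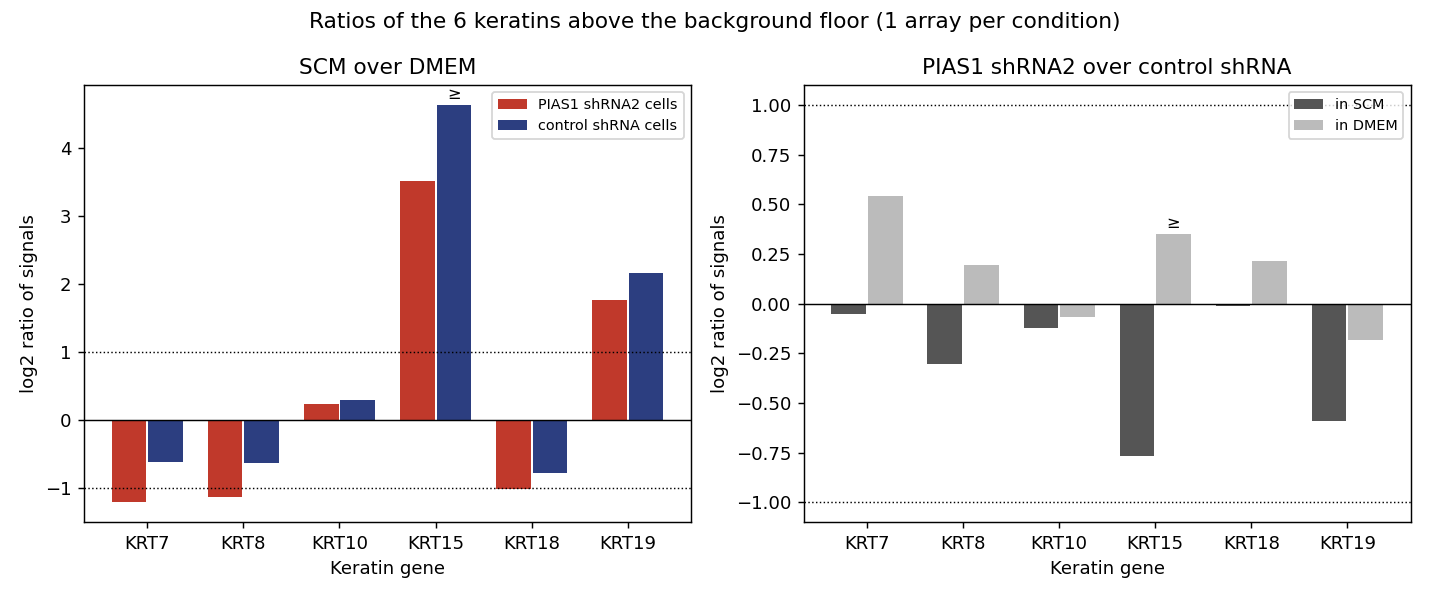
Log2 ratios of signals (y axes) of the 6 keratins above the background floor on at least 2 arrays (x axes), 1 array per condition. Left, SCM over DMEM in PIAS1 shRNA2 and control shRNA cells; right, PIAS1 shRNA2 over control shRNA in SCM and in DMEM, on a narrower axis. Dotted lines mark 2-fold and the sign over a bar a lower bound; KRT15 reaches 3.52 and 4.64 on the left, and no bar on the right reaches 2-fold.

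The medium term was then fitted with limma over 8923 genes, with the shRNA as the other term. The fit has 1 residual degree of freedom, its spread is the deviation of the lines from a common medium effect, and it tests only effects alike in both lines. Of all genes, 48.4% were called at an adjusted p under 0.05 (23.6% higher and 24.7% lower in SCM). All 5 members tested were called. When any 1 of the 4 arrays was left out, 0 of these 5 and 0 of all genes were called, and the members' limma adjusted p lay between 0.0598 (KRT19) and 0.254 (KRT10). KRT19 rose by 1.96 ± 0.13 on the log2 scale (SE, limma adjusted p = 5.55e-09). KRT18 fell by 0.91 ± 0.10 (limma adjusted p = 1.81e-06), KRT8 by 0.89 ± 0.13 (3.1e-05) and KRT7 by 0.92 ± 0.14 (4.97e-05). KRT10 had 0.26 ± 0.10 with a limma adjusted p of 0.045, and of 0.247 when the variance was fitted without a trend. KRT15 was left without a test. The estimates for KRT7, KRT8 and KRT18 differed from each other by less than any of their standard errors.

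**Figure D3:**
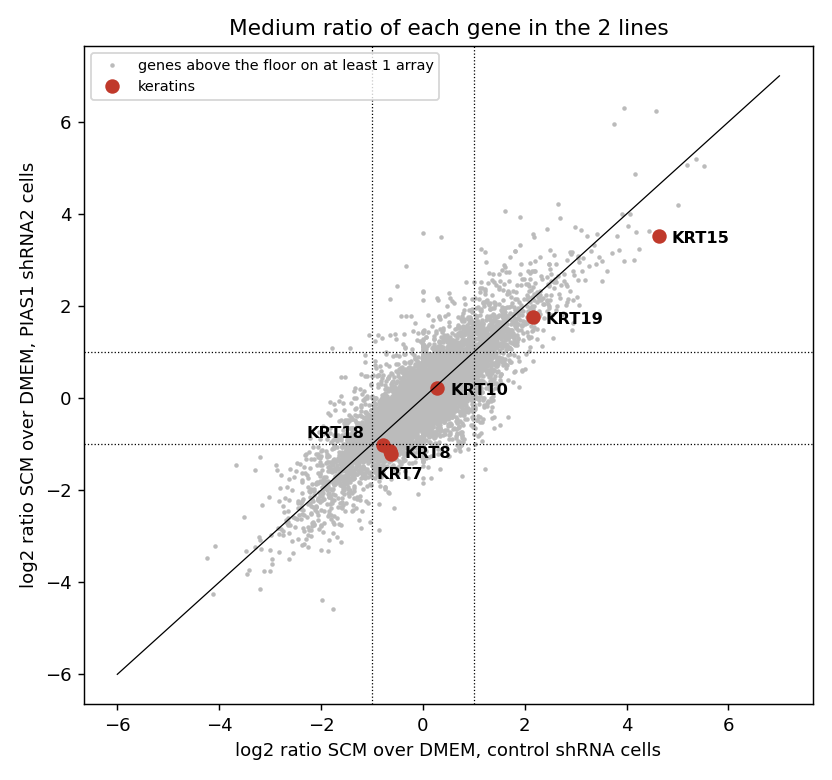
Log2 ratio of SCM over DMEM in control shRNA cells (x axis) and in PIAS1 shRNA2 cells (y axis), 1 grey point per gene above the floor on at least 1 array, 1 array per condition, with the 6 keratins above the floor in red. The solid line marks equal ratios and dotted lines 2-fold; KRT15 and KRT19 lie at the upper right, KRT10 near the centre, and KRT7, KRT8 and KRT18 at the lower left, all but KRT10 somewhat under the line of equal ratios.

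The keratin genes lie in clusters, and 4 of the members form adjacent pairs with ratios of like sign within each pair. This order was looked at once values were known, and the SCM level of KRT15 was known beforehand. The share of neighbouring genes with ratios of like sign was not counted, and no relation between neighbours was tested. In the RefSeq order of protein-coding genes on chromosome 17, KRT15 and KRT19 stand next to each other between KRT13 and KRT9. KRT13, a keratin of stratified mucosa, was under the floor on all arrays (12.2 to 180), as was KRT16, a keratin of wounded epidermis (9.07 to 35.8). KRT9, of palm and sole epidermis, was near the floor, with 182 in SCM and 215 in DMEM in PIAS1 shRNA2 cells, and 237 in SCM and 188 in DMEM in control shRNA cells. The gene EIF1, beyond KRT17, had log2 ratios of SCM over DMEM of 0.11 and 0.15. On chromosome 12, KRT8 and KRT18 are adjacent, and the next gene, EIF4B, had 0.29 in PIAS1 shRNA2 cells and 0.55 in control shRNA cells, opposite in sign to both keratins. KRT7 lies elsewhere in the chromosome 12 cluster, between KRT80 and KRT86, which were not analysed here.

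**Figure D4:**
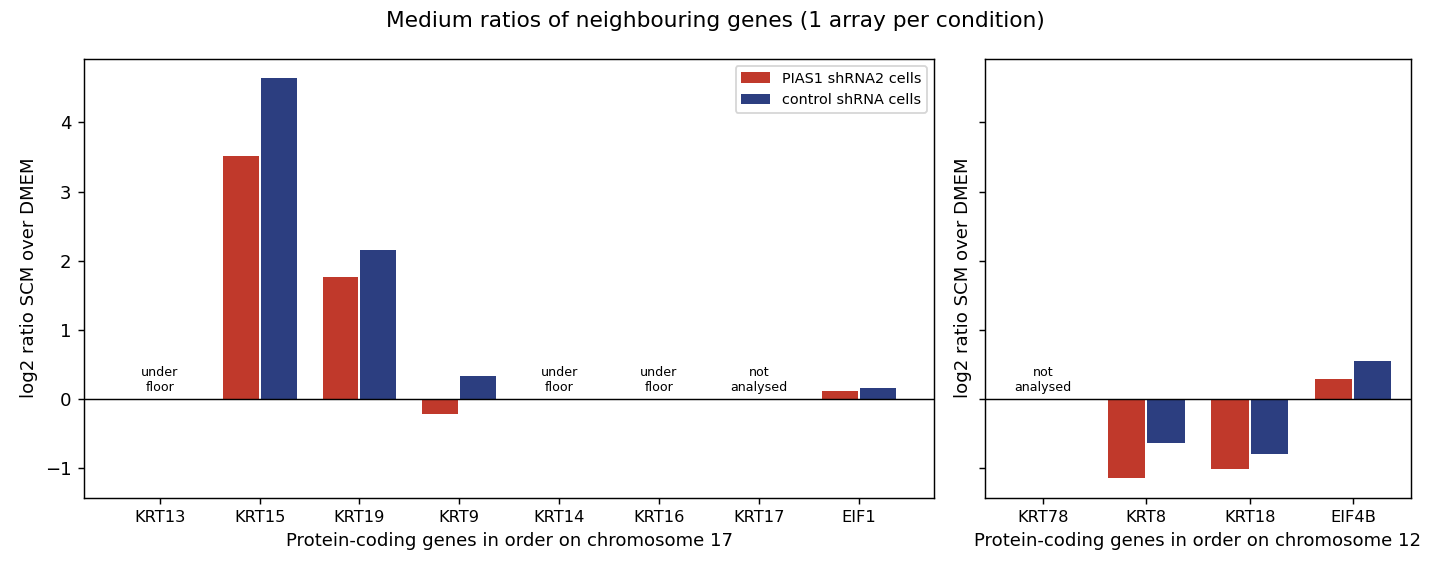
Log2 ratio of SCM over DMEM (y axis) for genes in their order along chromosome 17 (left) and chromosome 12 (right), in PIAS1 shRNA2 and control shRNA cells, 1 array per condition. Positions are ranks and not distances; KRT15 and KRT19 have positive ratios between neighbours that are under or near the floor, and KRT8 and KRT18 are lower beside EIF4B, which is not.

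PIAS1 knockdown is the other comparison, and no member reached 2-fold in either medium. In SCM the count was 0 of 8, against 2.84% of all genes (1.69% higher and 1.15% lower). In DMEM it was 0 of 8, against 1.78% of all genes (1.14% higher and 0.644% lower, or 136 against 77 genes, and 132 against 116 genes after quantile normalization). Both counts are near the share of all genes. KRT5 and KRT14, under the floor on every array, could not reach 2-fold. In SCM the lowest ratio was that of KRT15, 1.70-fold lower in PIAS1 shRNA2 cells (2714 against 4612), followed by KRT19, at a log2 ratio of -0.59 (12434 against 18700). KRT15 ranked 333 of 9289 and KRT19 625 of 9289 from the bottom. In SCM, KRT8 was 1.23-fold lower, and KRT7, KRT10 and KRT18 were within 1.09-fold of control.

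In DMEM the largest ratio was that of KRT7, 1.46-fold higher in PIAS1 shRNA2 cells (12944 against 8888), rank 667 of 8953 from the top. KRT18 was 1.16-fold higher and KRT8 1.14-fold higher, and KRT19 was 1.14-fold lower. KRT15 was at least 1.28-fold higher in DMEM (236 against 115), a value that the floor decides, since it was 2.07-fold with no floor, while both signals were under a higher floor of 319, the 95th percentile of the same background genes. In the limma fit, the shRNA term called 0 of 6 members, against 1.5% of 8923 genes (0.941% higher and 0.56% lower), so this count is near the share. KRT19 came nearest to a call, at -0.39 ± 0.13 on the log2 scale (SE, limma adjusted p = 0.22). It was the only member with an unadjusted p under the threshold. Fitted without a trend, 0 members were called and 0 passed unadjusted. With 1 array per condition, a p that misses the threshold does not show that the keratins were equal in the lines.

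In PIAS1 shRNA2 cells the medium ratio of each of the 6 members above the floor lay below that of control shRNA cells. Over all genes above the floor in 1 or both arrays, the median log2 medium ratio was also lower there, -0.01 against 0.04. The share of all genes with this sign was not counted, so the shared sign is not read as a trait of the keratins. The log2 ratio of SCM over DMEM in PIAS1 shRNA2 cells minus that in control shRNA cells was at most -1.12 for KRT15, -0.59 for KRT7, -0.50 for KRT8, -0.40 for KRT19, -0.23 for KRT18 and -0.06 for KRT10. Over the 7667 genes above the floor on all arrays, the size of this difference had a median of 0.24 and a 90th percentile of 0.72. The 5 members among these genes lay under the 90th percentile. The value of KRT15, which is not among them, rests on the floor and was -0.77 with the floor at 319. These differences have no replicate check and were not tested.

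The rest of the keratin family was dim. Of 15 other type I keratins measured, 7 were above the floor on at least 1 array and 0 on all, and of 9 other type II keratins the counts were 3 and 1. The exception was KRT75, a keratin of the hair follicle, with 264 in SCM and 254 in DMEM in PIAS1 shRNA2 cells, and 312 in SCM and 221 in DMEM in control shRNA cells. In SCM, 0 of these keratins reached 2-fold higher in either line, and 1 reached 2-fold lower, the hair keratin KRT31 in PIAS1 shRNA2 cells (14.5 in SCM and 402 in DMEM). Of all genes, 8.43% were higher and 8.03% lower in PIAS1 shRNA2 cells, and 8.23% and 8.2% in control shRNA cells. A keratin under the floor on both arrays cannot reach 2-fold. KRT38, KRT9 and KRT2 had signals of at most 318. Among the keratins measured here, KRT15 and KRT19 were thus the only ones at least 2-fold higher in SCM.

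Other intermediate filaments gave 13 measured genes. VIM, the mesenchymal filament protein, had 73617 in SCM and 74601 in DMEM in PIAS1 shRNA2 cells, and 71017 in SCM and 65060 in DMEM in control shRNA cells, with log2 ratios between media of -0.02 and 0.13. NES, a filament protein of neural progenitors, was 2.02-fold higher in SCM in PIAS1 shRNA2 cells and 2.57-fold higher in control shRNA cells. The nuclear lamina genes LMNB1 and LMNB2 were lower in SCM, LMNB1 by 5.21-fold in PIAS1 shRNA2 cells and 2.48-fold in control shRNA cells, and LMNB2 by 4.88-fold and 3.08-fold. These were the only genes of the list past 2-fold in each line, 1 higher and 2 lower. Of all genes, 8.43% were higher and 8.03% lower in PIAS1 shRNA2 cells, and 8.23% and 8.2% in control shRNA cells. The higher count is thus near the share of all genes.

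Keratin filaments end at desmosomes and hemidesmosomes. Of 20 measured genes of these junctions and their linkers, 5 were at least 2-fold higher and 1 lower in SCM in PIAS1 shRNA2 cells, and 4 were higher and 2 lower in control shRNA cells. Of all genes, 8.43% were higher and 8.03% lower in PIAS1 shRNA2 cells, and 8.23% and 8.2% in control shRNA cells, so the lower counts are near the share of all genes. The others past 2-fold, picked once values were known, were JUP (plakoglobin), 4.21-fold and 2.50-fold higher, and DSC2, 2.06-fold higher in PIAS1 shRNA2 cells, and PKP2, 2.01-fold lower in control shRNA cells. ITGB4, the integrin subunit of hemidesmosomes that binds plectin, was 4.34-fold higher in SCM in PIAS1 shRNA2 cells and 5.38-fold higher in control shRNA cells. LAMB3, a chain of its ligand laminin-332, was 4.25-fold and 4.73-fold higher, and PPL, the desmosomal linker periplakin, was 3.49-fold and at least 5.69-fold higher. PKP4, a plakophilin relative, was lower by 3.54-fold in PIAS1 shRNA2 cells and 2.85-fold in control shRNA cells. The median log2 ratio over the 16 genes above the floor was 0.15 in PIAS1 shRNA2 cells and 0.34 in control shRNA cells, against -0.01 and 0.04 over all genes above the floor.

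Of 19 luminal epithelial markers, keratins aside, 10 were at least 2-fold higher and 1 lower in SCM in PIAS1 shRNA2 cells, and 11 were higher and 0 lower in control shRNA cells, beside 8.43% higher and 8.03% lower of all genes in PIAS1 shRNA2 cells and 8.23% and 8.2% in control shRNA cells. Their median log2 ratio over the 15 above the floor was 1.39 in PIAS1 shRNA2 cells and 1.15 in control shRNA cells. CLDN7, a tight junction claudin, was 7.51-fold higher in SCM in PIAS1 shRNA2 cells and 10.6-fold higher in control shRNA cells. The trefoil peptide gene TFF1 was 7.93-fold and 11.5-fold higher, TFF3 at least 4.74-fold and 5.34-fold, and the surface glycoprotein gene CD24 3.54-fold and 3.43-fold. The 1 lower gene was GATA3, a luminal transcription factor, 2.77-fold lower in PIAS1 shRNA2 cells. KRT7, KRT8 and KRT18 were lower in SCM, as GATA3 was, and KRT19 was higher, as CLDN7, TFF1, TFF3 and CD24 were.

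Of 14 basal and myoepithelial markers, 1 was at least 2-fold higher and 3 lower in SCM in each line, beside the same 8.43% higher and 8.03% lower of all genes in PIAS1 shRNA2 cells and 8.23% and 8.2% in control shRNA cells, so the higher count is near the share of all genes. The transcription factor gene SNAI2 was 2.56-fold lower in PIAS1 shRNA2 cells and 3.28-fold lower in control shRNA cells, the smooth muscle gene TAGLN 2.57-fold and 2.78-fold, and the myosin kinase gene MYLK 2.14-fold and 2.24-fold. ACTA2, smooth muscle actin, was 2.14-fold higher in PIAS1 shRNA2 cells and 2.05-fold higher in control shRNA cells.

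Of 23 measured transcription factors known to act on keratin genes, 4 were at least 2-fold higher and 1 lower in SCM in PIAS1 shRNA2 cells, and 5 were higher and 0 lower in control shRNA cells. Of all genes, 8.43% were higher and 8.03% lower in PIAS1 shRNA2 cells, and 8.23% and 8.2% in control shRNA cells. JUNB, a subunit of AP-1, was 6.78-fold higher in PIAS1 shRNA2 cells and 8.71-fold higher in control shRNA cells. FOS, its partner, was at least 4.09-fold and at least 7.02-fold higher, KLF4, an epithelial Kruppel-like factor, 3.78-fold and 2.88-fold, and CEBPB 2.59-fold and 2.27-fold. Past 2-fold in 1 line were FOSL1, 2.78-fold lower in PIAS1 shRNA2 cells, and RARA, 2.67-fold higher in control shRNA cells. No relation between these factors and a keratin was tested.

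**Figure D5:**
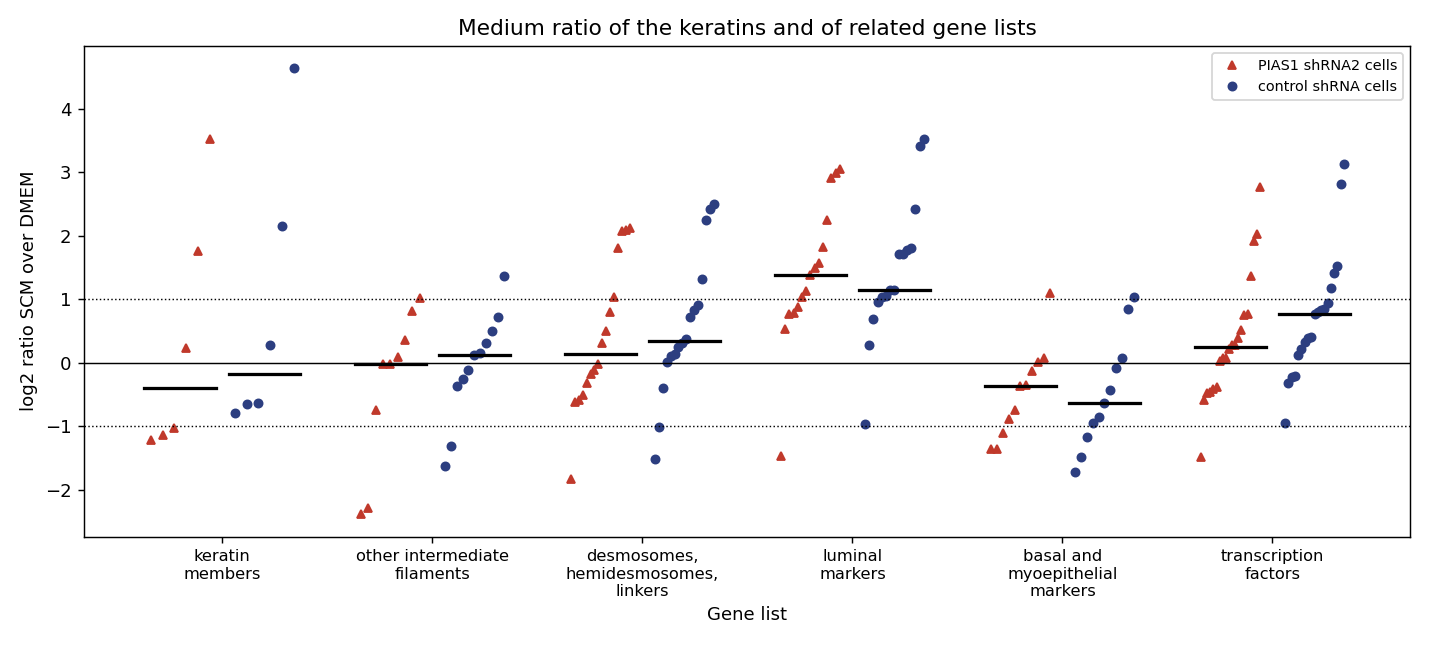
Log2 ratio of SCM over DMEM (y axis) of each gene above the floor in 1 or both arrays for the keratins and 5 related lists (x axis), in PIAS1 shRNA2 cells (triangles) and control shRNA cells (circles), 1 array per condition. Bars are medians over the plotted genes and dotted lines mark 2-fold; the luminal markers have medians of 1.39 and 1.15, while the keratins run from -1.22 to 4.64 around medians of -0.40 and -0.17.

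Markers of other cell types were read beside the medium ratios. Summed over the list, 7 fibroblast markers had 3940 and 3817 in SCM, against 1697 and 2209 in DMEM, in PIAS1 shRNA2 and control shRNA cells, with 5 of 7 above the floor on at least 1 array and LUM and PDGFRA under it on all. The 5 endothelial markers had 3731 and 2519 in SCM, against 444 and 529 in DMEM, mostly from PECAM1 (3297 and 2188 in SCM), with VWF, CDH5 and TEK under the floor on all arrays. The 7 leukocyte markers had 1439 and 2181 in SCM, against 854 and 1387 in DMEM, with PTPRC, MS4A1 and LYZ under the floor. In SCM the leukocyte sum came mostly from CD14 (961 and 1172), which had 355 and 627 in DMEM. The sums of the fibroblast, endothelial and leukocyte markers were higher in SCM, as KRT15 and KRT19 were, though not every marker was. COL1A2 and PDGFRB were at least 2-fold higher in SCM in both lines. CD14 was 2.71-fold higher in PIAS1 shRNA2 cells and 1.87-fold higher in control shRNA cells. CD3D had 40.6 in SCM and 198 in DMEM in PIAS1 shRNA2 cells, and 345 in SCM and 208 in DMEM in control shRNA cells.

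The 5 genes whose pattern over the 4 arrays was most like that of KRT15 were CFP, LOX, ZFP36, DEPP1 and SPAG4, out of 8922 candidates. Likeness was the root mean square difference between log2 signals raised to the floor, each gene centred on its own mean. It was 0.17 for CFP, the complement factor properdin, with signals of 2253 in SCM and 77.7 in DMEM in PIAS1 shRNA2 cells, and 3369 in SCM and 42.0 in DMEM in control shRNA cells. It was 0.26 for LOX, lysyl oxidase, 0.30 for ZFP36, an mRNA decay factor, 0.30 for DEPP1 and 0.32 for SPAG4. As for KRT15, each of the 5 genes had its highest signal in control shRNA cells in SCM, which the measure of likeness favours. In SCM, PIAS1 shRNA2 cells differed from control by -0.02 on the log2 scale for SPAG4, against -0.77 for KRT15.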

How the data were processed

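RNA of MDA-MB231 cells was measured on 1 Affymetrix human genome array in each of 4 conditions. The authors deposited linear intensity values; MAS5 is the tool in the submitters' processing notes, with version and settings not given in the sources used here. Deposited arrays had been scaled to 1 mean, 2501 without the lowest and highest 2% of probe sets. The number of arrays limits the precision.

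Probe sets with exactly 1 gene in the platform's table (19070) were used, those with several (1043) or none listed (2164) were not, and the probe set with the largest mean log2 signal stood for a gene. The symbols of the members matched RefSeq. As the floor served the 75th percentile of 64 probe sets (51 genes that other tissues express), at its highest over the arrays. Ratios have no test, and a member was counted at 2-fold. limma 3.58.1 in R 4.3.3 took floored log2 signals of the genes above the floor on 2 or more arrays, the terms medium and shRNA and a variance trend; p-values were adjusted by Benjamini-Hochberg. The steps were tested on simulated data. Other steps ran in Python 3.11.15 with NumPy 2.4.6, pandas 2.3.3 and matplotlib 3.10.9. The members, the lists and the tests were chosen with earlier results of these data known. From each list up to 4 genes at least 2-fold different in both comparisons of media or of shRNAs, with the largest smaller ratio, were named, or otherwise the 2 brightest. Of the remaining genes given with a value, KRT31, KRT13, KRT16, EIF1, EIF4B and those past 2-fold in only 1 line were picked once values were known, like the order along the chromosomes. Alternatives were other floors, scalings, means over a gene's probe sets, and in limma the variance model, the filter together with the floor, terms and arrays.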

Additional observations from a re-analysis of the deposited data

Results flagged for a closer look

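For 4 members PIAS1 shRNA2 over control shRNA pointed opposite ways in the media. Its log2 value in SCM less the one in DMEM was at most -1.12 for KRT15, which was lower with PIAS1 shRNA2 in SCM (-0.77) and higher in DMEM (at least 0.35). It was -0.59 for KRT7 (-0.05 in SCM and 0.54 in DMEM), -0.50 for KRT8 (-0.30 and 0.19) and -0.23 for KRT18 (-0.01 and 0.21). These are the same numbers as the differences of the medium ratios between the lines given in the Results, read the other way, and not a second observation. The share of all genes that pointed opposite ways was not counted, so the count is not read as a trait of the keratins. In SCM, KRT7 and KRT18 were close to equal in the lines, so the sign of their ratios there means little. Each condition has 1 array, so these differences were not tested. For KRT15 both DMEM signals were near or under the floor, and a floor of 319 put both under it.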

How the results depend on the processing

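All 7 ratios of members at 2-fold or more kept their direction under the 6 alternatives, and all stayed at 2-fold except that of KRT7 in PIAS1 shRNA2 cells when the probe sets of a gene were averaged. With no floor, 1 member was at least 2-fold different between the shRNAs in SCM (KRT14) and 2 in DMEM (KRT5 and KRT15), where the floor left 0, and the medians of the 8 members were 0.61 for SCM over DMEM in PIAS1 shRNA2 cells, -0.17 in control shRNA cells and 0.20 for PIAS1 shRNA2 over control shRNA in DMEM, against 0.00, 0.00 and 0.10 with the floor. These differences come from signals under the floor. The medium term of limma called 5 members, 4 in each fit with no trend, no filter, quantile normalization or no shRNA term (KRT10 was lost), and 0 to 0 in the fits that left out 1 array, which called 0 of all 8923 genes, with 2914 to 3578 at an unadjusted p under 0.05. Those fits have 3 arrays and lack the other term. The fits with no filter also took signals not raised to the floor, so they change both steps at once. The shRNA term called 0 members in every fit, and of all genes 134, 0 without a trend, 43 without the filter and 0 without the medium term. Over all genes, 1009 were at least 2-fold higher and 961 lower in SCM in PIAS1 shRNA2 cells, and 1978 and 1778 with no floor; in control shRNA cells 984 and 981, and 2216 and 1618 with no floor. Between the shRNAs, 202 were higher and 138 lower in SCM (1012 and 1021 with no floor, 135 and 69 with the floor at the 95th percentile, 81 and 47 at the array median), and 136 and 77 in DMEM (1248 and 850, 64 and 40, and 31 and 23). The medium term was fitted within lines, with the shRNA as the other term. The labels give no replicate numbers, so there was no block by replicate.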

Other observations

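Of 13 measured genes of epidermal differentiation, 1 was at least 2-fold higher and 1 lower in SCM in PIAS1 shRNA2 cells. In control shRNA cells 0 were higher and 1 was lower. Of all genes, 8.43% were higher and 8.03% lower in PIAS1 shRNA2 cells, and 8.23% and 8.2% in control shRNA cells, so these counts are near the share. The higher gene, PI3, was 2.76-fold higher in SCM in PIAS1 shRNA2 cells. The filament-binding gene FLG was at least 8.07-fold lower in SCM in PIAS1 shRNA2 cells and at least 9.30-fold lower in control shRNA cells, with 106 in SCM and 1496 in DMEM in PIAS1 shRNA2 cells, and 178 in SCM and 1723 in DMEM in control shRNA cells. Among 12 measured markers of hair follicle stem cells, where KRT15 is often used, 1 was at least 2-fold higher (TCF7L2) and 2 lower (LGR5 and NFIB) in SCM in PIAS1 shRNA2 cells. In control shRNA cells 1 was higher (NFATC1) and 0 lower. Beside the same shares of all genes, 8.43% and 8.23% higher, the counts of 1 higher are near the share. For the lower counts, the shares were 8.03% and 8.2%. The brightest were SOX9, with log2 ratios of -0.48 and -0.20, and GAS6, with -0.98 and -0.99.

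A probe set listed for the pseudogene KRT8P12 was above the floor on all arrays, with 279 in SCM and 298 in DMEM in PIAS1 shRNA2 cells, and 405 in SCM and 231 in DMEM in control shRNA cells. In PIAS1 shRNA2 cells it was thus slightly lower in SCM, and in control shRNA cells it was higher there, unlike KRT8, which was lower in SCM in both.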
